A study of Mus musculus with 384 samples.

Results

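The genes described here are 9 genes of retinoic acid signalling in mouse formative stem (FS) cells and epiblast stem cells (EpiSCs): the receptors Rara, Rarb, Rarg, Rxra and Rxrb, the binding proteins Crabp1 and Crabp2, and the enzymes Cyp26a1 and Dhrs3. They were chosen by name, through the Ensembl identifier of each symbol, and all 9 have a row among the 31617 genes of the raw count table. Single cells were profiled by Smart-seq2, which copies full-length mRNA and carries no molecular identifiers, in 384 cells, 96 from each of 4 lines. Cells with at least 3000000 counts on genes were kept, which left 326. The FS lines 5ar1 (90 cells kept) and 5ar2 (90) grew in the medium AloXR, with 3 ng/ml activin, 2 µM of the tankyrase inhibitor XAV939 and 1 µM of BMS493, an inverse agonist of the retinoic acid receptors. The EpiSC line AFX6 (66 cells) grew in AFX, with 20 ng/ml activin, Fgf2 and XAV939, and the EpiSC line AF32 (80 cells) in AF, which differs from AFX by leaving out XAV939. Only the FS lines had BMS493, so that the inverse agonist, the lower activin, the absence of Fgf2, the state and the lines themselves cannot be told apart. Lines, not cells, are the replicates: 2 FS lines stand against 2 EpiSC lines, and each EpiSC medium has 1 line.

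Retinoic acid is made from vitamin A by dehydrogenases and enters the nucleus, where it binds receptors of the RAR family. RARs sit on DNA with a partner of the RXR family, often at direct repeats of a short half-site; without ligand they hold corepressors, and an inverse agonist such as BMS493 strengthens that hold. CRABP proteins carry the ligand in the cell, CYP26 enzymes oxidise it, and DHRS3 turns its precursor retinaldehyde back to retinol. Rarb, Cyp26a1 and Dhrs3 are known to be induced by retinoic acid, so they serve in many tissues as readouts of the pathway. In the epiblast the signal is low before gastrulation, and later it patterns the trunk and drives neural differentiation.

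Depth and identity were checked once for all genes. Kept cells held between 3022666 and 6686007 counts, and the 4 lines had medians of 11371 (5ar1), 11568 (5ar2), 10328 (AFX6) and 10331 (AF32) genes detected per cell. All 6 markers of post-implantation pluripotency were present: Pou5f1 lay between 490 and 644 CPM (counts per 1000000 counts of the summed cells of a line) and Dnmt3b between 493 and 2243 CPM. Summed per line, the 3 naive markers with a row lay between 0.627 and 3.68 CPM, the 4 feeder markers between 7.57 and 40.7 CPM, the 3 trophoblast markers between 1.05 and 6.02 CPM, and the 4 extraembryonic endoderm markers between 0.00301 CPM in AFX6 and 1.76 CPM in 5ar1. The 4 neural markers summed to 21.3 CPM in AF32 against 2.44 to 4.59 CPM elsewhere, and the 5 markers of the primitive streak to 61.5, 52.0, 7.88 and 54.6 CPM in 5ar1, 5ar2, AFX6 and AF32, with Eomes leading in FS cells and T in AF32. AF32 is the line in which several genes below are highest, and the part of these other cell types in that was not tested. Y-linked genes summed to 0.547 CPM in AFX6 against 154 to 255 CPM in the other lines, so that AFX6 had at most 0.356% of the level of any other line. No pair of cells had identical counts. The share of cells with a gene depends on detection: 39.0% of the 22606 genes tested were found in a larger share of cells in both FS lines than in both EpiSC lines, and 8.70% in a smaller share.

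Rarb and Cyp26a1 carry in their promoters the kind of sequence that RAR and RXR pairs are known to bind, and both are shown for that reason. The search took direct repeats of the half-sites AGGTCA or AGTTCA or GGGTCA or GGTTCA on either strand, spaced by 5 bases, in RefSeq windows of GRCm38.p6 from 250 bases before to 50 bases after each gene's start. Such a repeat occurred in 32 of 32851 windows (0.0974%), among them the single windows of Rarb and Cyp26a1, and in no window of the other 6 members that have one. Crabp2 has no window. Repeats spaced by 2 or by 1 occurred in 88 and 73 windows, none of them of a member. In the lines below the half-sites are in capitals; the Cyp26a1 repeat lies on the strand opposite to the gene, and is written as read on that strand.
Rarb repeat: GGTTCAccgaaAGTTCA
Cyp26a1 repeat: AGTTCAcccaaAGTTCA
The first lies at chr14:16575513-16575529, 37 to 53 bases before the RefSeq start of Rarb (chr14:16575476, minus strand), and the second at chr19:37697776-37697792, 16 to 32 bases before the RefSeq start of Cyp26a1 (chr19:37697808, plus strand). GENCODE M21 has the Rarb gene start 243680 bases farther out, with the repeat inside its span, and Cyp26a1 start 10 bases farther out. The 240 bases before the GENCODE start of Cyp26a1, chr19:37697558-37697797, are given next, 5′ to 3′ on the strand of the gene, with the half-sites in capitals.
Cyp26a1 promoter: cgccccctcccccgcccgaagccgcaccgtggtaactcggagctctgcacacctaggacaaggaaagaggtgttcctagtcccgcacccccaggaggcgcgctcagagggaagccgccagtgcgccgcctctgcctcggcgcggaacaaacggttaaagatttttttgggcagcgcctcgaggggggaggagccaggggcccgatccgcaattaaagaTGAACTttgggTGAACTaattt
A match describes the letters only, and binding was not measured here.

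Rarb, the receptor that retinoic acid is known to induce through this repeat (Ensembl ENSMUSG00000017491, chr14:16430839-16819156), was at or near 0 in the FS lines. The cells of 5ar1 summed to 0 counts and those of 5ar2 to 2 counts, against 157 counts in AFX6 (0.472 CPM) and 229 in AF32 (0.644 CPM). Nearly all of the EpiSC counts came from 1 cell in each line, with 28.7 CPM in AFX6 and 40.0 CPM in AF32, which held 99.4% and 99.1% of the counts. A count of 0 in 5ar1 allows 3 counts, or 0.00696 CPM, so that AFX6 was at least 67.8-fold higher and AF32 at least 92.4-fold higher than 5ar1 by counting error alone. Over the 2 counts of 5ar2 the ratio was 103 for AFX6 (95% exact interval 27.9–855) and 140 for AF32 (38.3–1163). These intervals cover counting error and not the spread between cells, which here is the difference of 1 cell in 66 and 1 cell in 80 from 0 in 90. No cell of 5ar1 or 5ar2 had 5 CPM (0 of 90 in each; the floor of 3 cells is a share of 3.33%, and the upper limit of the exact 95% interval 4.02%). Both FS lines thus lay below both EpiSC lines in CPM, which 21.5% of genes tested did. In 5ar2, 1 cell under the depth threshold, with 1332343 counts, had 23.3 CPM. Exons of Rarb share 1793 bases with Top2b on the other strand, and reads there cannot be assigned to either gene without strand.

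Cyp26a1, the oxidase that clears retinoic acid (ENSMUSG00000024987, chr19:37697798-37701536), was found in 6 of 80 AF32 cells at 5 CPM or more (7.50%, 95% exact interval 2.80–15.6%) and hardly elsewhere. Its level was 13.0 CPM in AF32 and 0.0120 CPM in AFX6, and 0.276 CPM in 5ar1 and 0.00230 CPM in 5ar2. The 6 cells of AF32 had 329, 306, 134, 133, 96.7 and 78.1 CPM, and the other 74 cells at most 0.265 CPM. The 5ar1 value was 1 cell at 20.8 CPM, and AFX6 and 5ar2 had no cell at 5 CPM. AF32 lay above AFX6 by 4.72 on the log2 scale, with 0.5 CPM added to both values, and was the only member past a log2 fold of 1.4 in that direction, as 7.18% of the 11715 genes with 5 CPM in any line were; 0 members were past it in the other direction (4.98% of genes). With 1 line for each EpiSC medium this difference has no replicate check. The FS and EpiSC lines overlapped, with an edgeR log2 fold change of −5.54 ± 3.51 (SE; FS minus EpiSC; quasi-likelihood adjusted p = 0.559), and without AF32 the value turned to 3.46. Among the 30 AFX6 cells under the depth threshold, 1 had 522 CPM.

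The cells with Cyp26a1 in AF32 were compared with other genes known to follow retinoic acid. Of the 6 cells, 4 also had at least 5 CPM of Tgm2, a transglutaminase, which 21 of the 80 cells had; the product of both shares gives 1.58 cells. Meis2, a homeobox cofactor, was in 3 of the 6 and in 17 of 80 (product 1.27). Meis1 was in 2 of the 6 and in 3 of 80, and Hoxb2 in 2 of the 6 and in 2 of 80, so that both AF32 cells with Hoxb2 had Cyp26a1. None of the 6 had T, Foxa2, Gsc, Mixl1 or Eomes at 5 CPM, markers of the primitive streak, which 2, 13, 4, 1 and 10 of the 80 cells had. The products of the shares were 0.15, 0.975, 0.3, 0.075 and 0.75 cells, so that few or no such cells would be found among 6 in any case. Dhrs3 was in 2 of the 6 and in 27 of 80 (product 2.02), and the AF32 cell with Rarb had no Cyp26a1. These are counts over cells of 1 line, with no test, and Meis1 and Hoxb2 were picked after their values were seen.

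Dhrs3, the reductase that returns retinaldehyde to retinol (ENSMUSG00000066026, chr4:144892827-144928209), stood lower in both FS lines, where few cells had it. Its level was 6.68 CPM in 5ar1 and 2.21 CPM in 5ar2, against 39.4 CPM in AFX6 and 28.9 CPM in AF32. At least 5 CPM was found in 10 of 90 cells of 5ar1 (11.1%, 95% exact interval 5.46–19.5%) and 6 of 90 of 5ar2 (6.67%, 2.49–13.9%), against 34 of 66 of AFX6 (51.5%, 38.9–64.0%) and 27 of 80 of AF32 (33.8%, 23.6–45.2%). The FS lines did not overlap the EpiSC lines in level or in share. The FS value rested on few cells: the highest cell gave 38.3% (5ar1) and 60.1% (5ar2) of its counts, where the highest cell of AFX6 gave 7.56% and that of AF32 16.6%. Within the EpiSC lines the cells were split, with a median of 8.10 CPM and an upper quartile of 72.7 CPM in AFX6, and 0.236 and 42.4 CPM in AF32. The edgeR log2 fold change was −2.96 ± 0.65 (SE), with an unadjusted p of 0.00922 and a quasi-likelihood adjusted p of 0.190. Between the FS lines, 5ar2 was below 5ar1 by 1.41 on the log2 scale, and Dhrs3 was the 1 member past 1.4 in that direction, where 1.31% of genes were; no member was past it in the other direction (1.10% of genes). Without the 5 cells of 5ar1 with few detected genes, its level there was 3.43 CPM, 1.95 times lower.

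**Figure D1:**
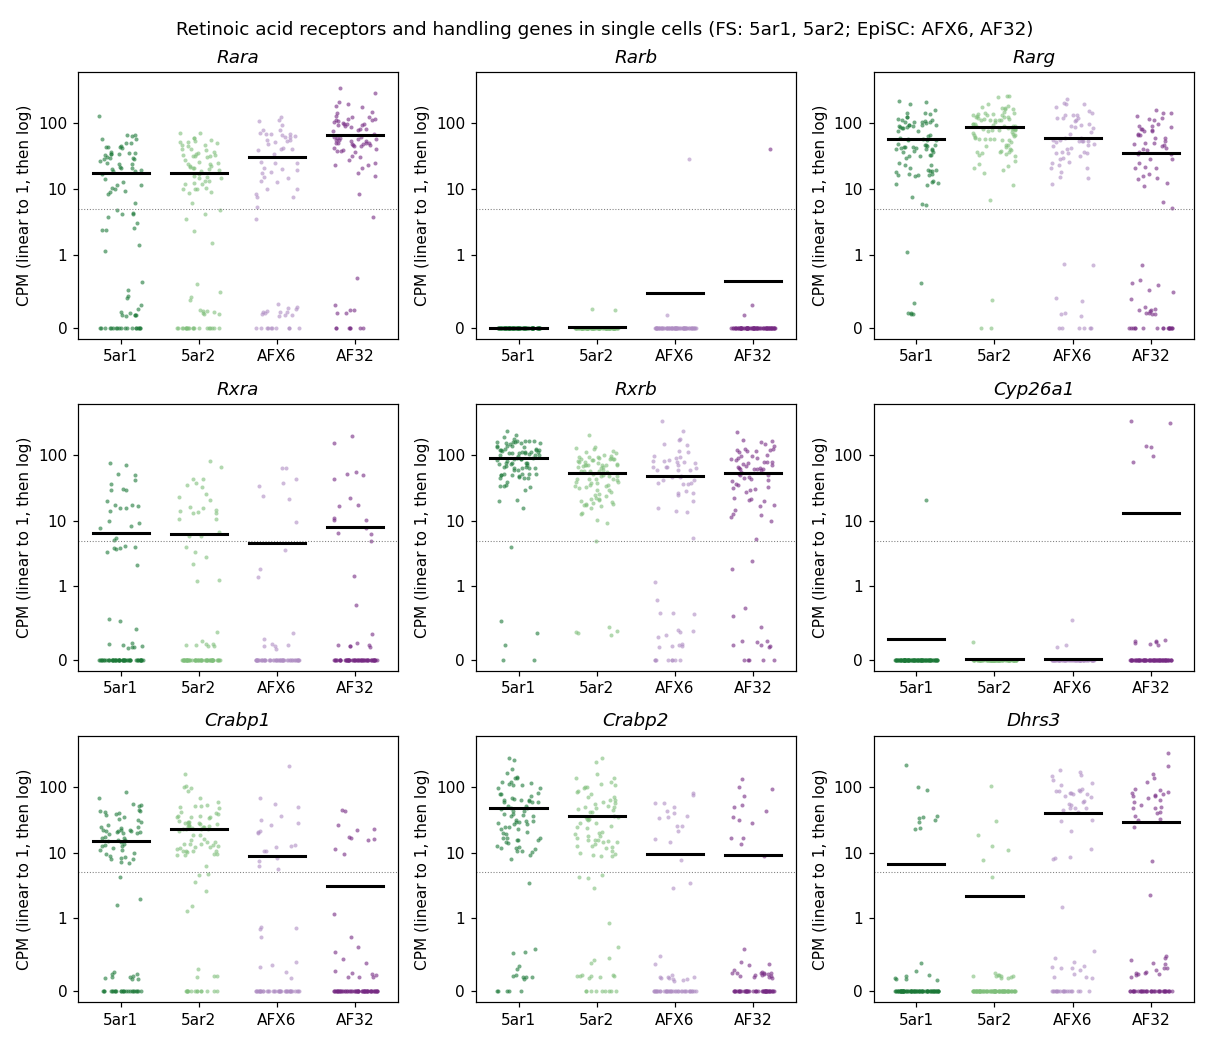
CPM of the 9 genes in each kept cell (points; axis linear to 1 and logarithmic above), by line, with the CPM of the summed cells as a bar and 5 CPM as a dotted line. Crabp1 and Crabp2 are found in most FS cells and a smaller share of EpiSCs, Dhrs3 in few FS cells and in 34 of 66 AFX6 and 27 of 80 AF32 cells, Cyp26a1 is above 5 CPM in 6 cells of AF32 and 1 of 5ar1, and Rarb in 1 cell of each EpiSC line.

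The binding proteins stood the other way. Crabp2, which is known to deliver retinoic acid to nuclear receptors (ENSMUSG00000004885, chr3:87948666-87953376), stood at 47.6 CPM in 5ar1 and 36.1 CPM in 5ar2, and at 9.67 CPM in AFX6 and 9.21 CPM in AF32. Both FS lines were above both EpiSC lines, by at least 26.4 CPM. It reached 5 CPM in 73 of 90 cells (81.1%, 71.5–88.6%) and 64 of 90 cells (71.1%, 60.6–80.2%) of the FS lines, but in 16 of 66 AFX6 cells (24.2%, 14.5–36.4%) and 14 of 80 AF32 cells (17.5%, 9.91–27.6%). The FS mean of 41.8 ± 8.18 CPM (SD, n = 2 lines) and the EpiSC mean of 9.44 ± 0.324 CPM gave an edgeR log2 fold change of 2.14 ± 0.27 (SE), with an unadjusted p of 0.00109 and a quasi-likelihood adjusted p of 0.190. The value lay between 1.91 and 2.32 whichever line was left out.

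Crabp1, the cytoplasmic binding protein known to keep retinoic acid from the nucleus (ENSMUSG00000032291, chr9:54764748-54773110), stood at 14.7 CPM in 5ar1 and 22.5 CPM in 5ar2, against 8.86 CPM in AFX6 and 3.15 CPM in AF32. It reached 5 CPM in 54 of 90 cells (60.0%, 49.1–70.2%) and 66 of 90 cells (73.3%, 63.0–82.1%) of the FS lines, and in 20 of 66 cells of AFX6 (30.3%, 19.6–42.9%) and 11 of 80 of AF32 (13.8%, 7.07–23.3%). The lines did not overlap in level or share. The edgeR log2 fold change of 1.61 ± 0.64 (SE; quasi-likelihood adjusted p = 0.343) became −0.07 when cells with at least 1000000 counts were used. That setting brings in 1 cell of AF32 with 1446467 counts, which had 7390 CPM of Crabp1 and held 99.6% of the Crabp1 counts of the 16 AF32 cells under the threshold. The same cell had 456 CPM of Crabp2. Among the kept cells of AFX6, 1 cell with 207 CPM held 21.8% of the counts.

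Per length, which allows the genes to be compared, the binding proteins summed to 54.4 CPM per kb of exon in 5ar1 and 55.3 in 5ar2, and to 18.4 in AFX6 and 10.9 in AF32. Crabp1 gave 33.8% and 50.7% of that level in the FS lines, and 60.2% and 36.0% in AFX6 and AF32. Either of them was found at 5 CPM in 81 of 90 cells of 5ar1 (90.0%, 81.9–95.3%) and 85 of 90 of 5ar2 (94.4%, 87.5–98.2%), against 30 of 66 of AFX6 (45.5%, 33.1–58.2%) and 23 of 80 of AF32 (28.8%, 19.2–40.0%). Both together were in 46 and 45 cells of the FS lines, 6 of AFX6 and 2 of AF32. The products of the shares were 43.8, 46.9, 4.85 and 1.92 cells, and the rank correlation of both levels over the cells of a line lay between 0.03 and 0.18.

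**Figure D2:**
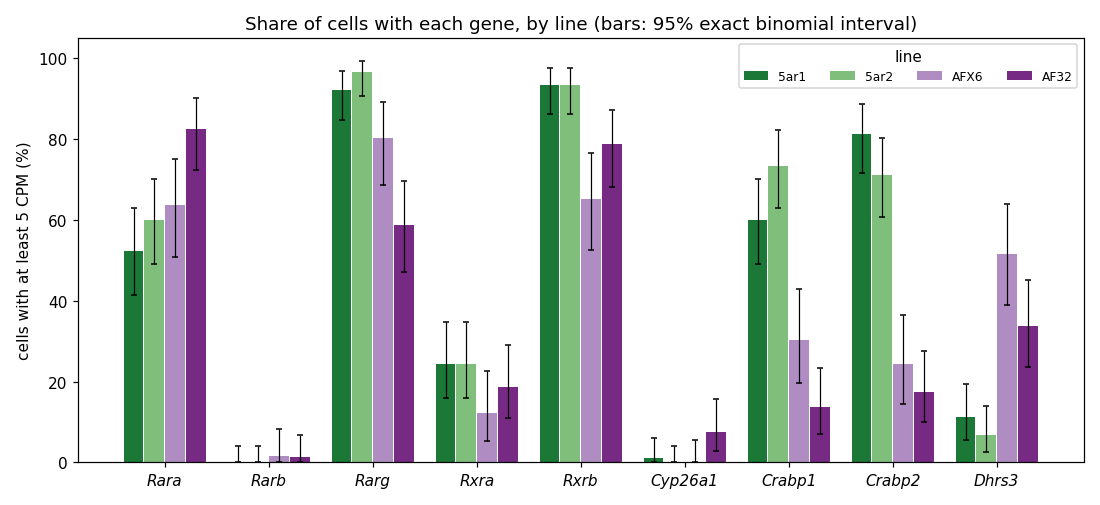
Share of kept cells with at least 5 CPM of each gene in each line (90, 90, 66 and 80 cells), with exact 95% binomial intervals, which cover counting error only. The FS bars stand above both EpiSC bars for Crabp1, Crabp2, Rarg, Rxra and Rxrb, as for 39.0% of all genes tested. They stand below both for Rara, Rarb and Dhrs3, as for 8.70%. For Rarb this is 1 cell in each EpiSC line, and for Rara the lines no longer separated at 1 CPM.

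Rara and Rarg were the RARs present in most cells, and AF32 was the highest line for Rara and the lowest for Rarg. Rara, the broadly expressed RAR (ENSMUSG00000037992, chr11:98927818-98974942), had 17.4 CPM in 5ar1 and 17.6 CPM in 5ar2, 30.1 CPM in AFX6 and 65.8 CPM in AF32. The FS lines were close to each other and both below both EpiSC lines. It reached 5 CPM in 47 of 90 (52.2%, 41.4–62.9%), 54 of 90 (60.0%, 49.1–70.2%), 42 of 66 (63.6%, 50.9–75.1%) and 66 of 80 cells (82.5%, 72.4–90.1%) in the same order, and the intervals of 5ar1, 5ar2 and AFX6 overlap. The lines no longer separated in share when 1 CPM was asked for, with 64.4%, 65.6%, 65.2% and 83.8% of cells. The edgeR log2 fold change was −1.45 ± 0.43 (SE), with an unadjusted p of 0.0246 and a quasi-likelihood adjusted p of 0.228. It was −0.82 without AF32 and −1.89 without AFX6, so that AF32 set much of its size.

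Rara lies on chromosome 11, and the other genes of that chromosome were also highest in AF32. For each cell, the mean level of 617 protein-coding genes of chromosome 11, each relative to its mean over the kept cells, was divided by the median autosome. This ratio had a median of 1.29 in AF32 and of 0.915, 0.901 and 0.907 in 5ar1, 5ar2 and AFX6, and it was above 1.2 in 66 of 80 AF32 cells, 11 of 90 5ar1 cells, 0 of 90 5ar2 cells and 9 of 66 AFX6 cells. In the cells above 1.2, Rara had 71.3 CPM in AF32, 42.2 CPM in 5ar1 and 44.9 CPM in AFX6. In the other cells it had 38.9 CPM in AF32 (14 cells), 14.0 CPM in 5ar1 (79), 17.6 CPM in 5ar2 (90) and 27.8 CPM in AFX6 (57). In these other cells both FS lines were below both EpiSC lines, and AF32 was at 1.4 times the level of AFX6, against 2.18 times over all kept cells. Within lines, the rank correlation of the ratio and Rara was 0.05, 0.04, 0.35 and 0.18 in 5ar1, 5ar2, AFX6 and AF32, and the part of the chromosome in the AF32 value was not tested. The copy number of the chromosome was not measured here.

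**Figure D3:**
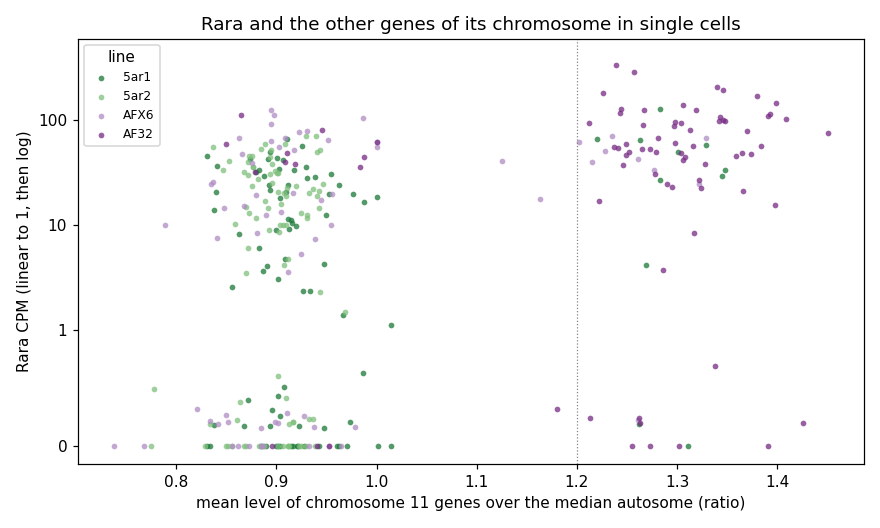
Rara CPM in each kept cell (vertical axis, linear to 1 and logarithmic above) against the ratio of chromosome 11 genes to the median autosome (horizontal axis), coloured by line, with 1.2 as a dotted line. Most AF32 cells (66 of 80) lie to the right of the line, together with 11 cells of 5ar1 and 9 of AFX6.

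Rarg, an RAR of early embryonic tissue (ENSMUSG00000001288, chr15:102234938-102257517), was lowest in AF32. It had 57.7 CPM in 5ar1, 86.7 CPM in 5ar2, 58.5 CPM in AFX6 and 35.1 CPM in AF32, so that 5ar1 and AFX6 did not separate and the groups overlapped. It reached 5 CPM in 92.2% (84.6–96.8%) and 96.7% (90.6–99.3%) of FS cells of the 2 lines, 80.3% (68.7–89.1%) of AFX6 cells and 58.8% (47.2–69.6%) of AF32 cells. The edgeR log2 fold change was 0.61 ± 0.38 (SE; quasi-likelihood adjusted p = 0.553). The ratio of chromosome 15 genes was 1.15 in 5ar2 and 0.958, 0.992 and 0.926 in 5ar1, AFX6 and AF32, in the order of the Rarg levels. Within lines the ratio and Rarg ran with rank correlations of 0.07, 0.13, −0.03 and −0.16 in 5ar1, 5ar2, AFX6 and AF32. In 5ar2, Rarg had 86.4 CPM in the 11 cells above 1.2 and 86.8 CPM in the other 79, and in AFX6 77.2 CPM in 8 cells and 55.9 CPM in the other 58.

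Per length, Rarg was the main RAR in 3 lines: 13.5 against 3.98 CPM per kb of Rara in 5ar1, 20.4 against 4.04 in 5ar2 and 13.7 against 6.91 in AFX6. In AF32 the order was turned, with 8.24 for Rarg and 15.1 for Rara. Rara gave 22.7%, 16.6%, 33.5% and 64.7% of the level of both in 5ar1, 5ar2, AFX6 and AF32. In the same cells, Rara was above Rarg per length in 15 of 90 5ar1 cells (16.7%, 9.64–26.0%), 7 of 90 5ar2 cells (7.78%, 3.18–15.4%), 19 of 66 AFX6 cells (28.8%, 18.3–41.3%) and 52 of 80 AF32 cells (65.0%, 53.5–75.3%). Among the 14 AF32 cells with a chromosome 11 ratio of at most 1.2, it was so in 7 (50.0%, 23.0–77.0%), and Rara gave 48.2% of both. The summed RAR level was steadier than its parts, at 17.5, 24.4, 20.7 and 23.4 CPM per kb. Any RAR was found at 5 CPM in 95.6% (89.0–98.8%) of 5ar1 cells, 98.9% (94.0–100.0%) of 5ar2, 89.4% (79.4–95.6%) of AFX6 and 93.8% (86.0–97.9%) of AF32.

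The RXR partners did not separate the groups in CPM of the summed kept cells. Rxrb (ENSMUSG00000039656, chr17:34031812-34038399) had 88.4 CPM in 5ar1, 52.6 CPM in 5ar2, 48.3 CPM in AFX6 and 53.2 CPM in AF32, and only 5ar1 stood apart. It reached 5 CPM in 93.3% (86.1–97.5%) of cells of both FS lines, 65.2% (52.4–76.5%) of AFX6 and 78.8% (68.2–87.1%) of AF32. The edgeR log2 fold change was 0.47 ± 0.31 (SE; quasi-likelihood adjusted p = 0.576), and 0.03 without 5ar1. Rxra (ENSMUSG00000015846, chr2:27676440-27762957) was low everywhere, with 6.52, 6.26, 4.58 and 8.08 CPM in 5ar1, 5ar2, AFX6 and AF32, and reached 5 CPM in 24.4%, 24.4%, 12.1% and 18.8% of cells. Its log2 fold change was 0.01 ± 0.46 (SE; quasi-likelihood adjusted p = 0.995). Per length, Rxrb gave between 90.1% and 94.9% of the level of both RXRs in every line. In AF32, 5 cells held 74.6% of the Rxra counts, and the 29 cells with a ratio of chromosome 2 genes above 1.2 had 19.2 CPM against 1.65 CPM in the other 51.

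Over all genes, the test with lines as replicates made no call. edgeR's quasi-likelihood test called 0 of 22606 genes (0.00%), where a call needs an adjusted p (Benjamini-Hochberg) below 0.05 together with a log2 fold change past 1.4 either way, and so 0 of the 9 members, while 3636 genes had an unadjusted p under 0.05. Of these, 2048 were higher in FS cells (9.06% of those tested), Crabp2 among them, and 1588 lower (7.02%), with Rara, Rarb and Dhrs3. DESeq2 called 1808 of 30577 genes (5.91%) and 4 of the 9 members: Crabp2 with a log2 fold change of 2.12 (adjusted p = 6.9e-10), Dhrs3 with −2.97 (1.08e-04), Rarb with −7.95 (3.82e-04) and Rara with −1.48 (0.0201). Rarb, with 0 and 2 counts in the FS lines, passed edgeR's filter through the EpiSC lines alone. There 1 cell of AFX6 and 1 of AF32 held 99.4% and 99.1% of its counts, so its p-values are no support for a difference. Over the 10 alternative settings of edgeR, the adjusted p lay between 0.178 and 0.751 for Crabp2, 0.180 and 0.751 for Dhrs3 and Rarb, and 0.199 and 0.751 for Rara. limma on mean CPM called 1 of 14303 genes (0.00699%) and none of the 7 members that it could test. An exact two-sided permutation test of 2 lines against 2 cannot go below p = 0.333, which the 5 members without overlap reached. Both FS lines were above both EpiSC lines in CPM for 2 members, Crabp1 and Crabp2, where 26.8% of all genes were, and below for 3, Rara, Rarb and Dhrs3, where 21.5% were. Counts of members this close to those over all genes say nothing particular of the 9.

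**Figure D4:**
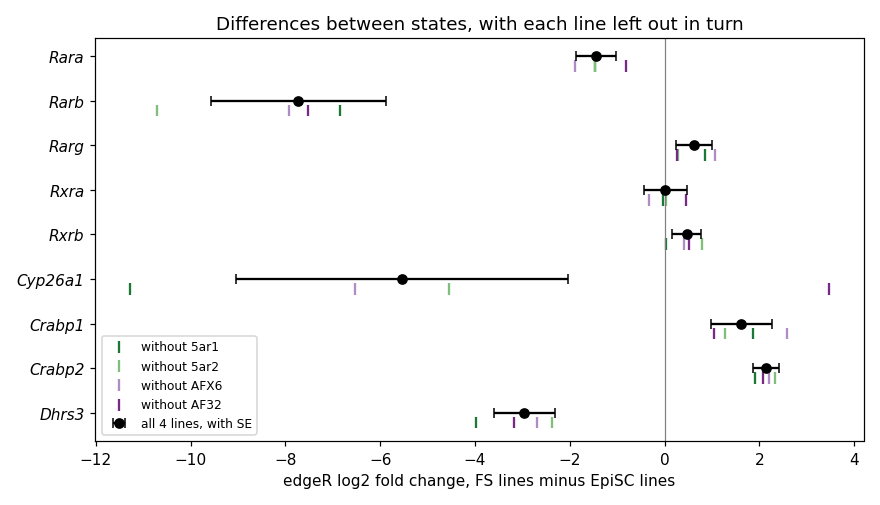
edgeR log2 fold change of each gene between FS and EpiSC lines (points, with SE) and the same value with each line left out in turn (ticks, coloured by the line left out). Crabp1, Crabp2, Rarg and Rxrb stay above 0 and Rara, Rarb and Dhrs3 below it without any 1 line, Rxra crosses 0, and Cyp26a1 turns to 3.46 without AF32; fitted values of Rarb rest on 0 and 2 counts in the FS lines and give no bound.

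The other genes of the pathway were taken from lists, and edgeR called 0 genes of each. Of the 8 enzymes of retinoid synthesis, 6 had a row and 5 were tested; Rdh11, a retinaldehyde reductase, was lower in both FS lines (137 and 115 CPM against 233 and 204 CPM; unadjusted p = 0.0125, quasi-likelihood adjusted p = 0.190). Adh5, a dehydrogenase of broad substrate range, lay between 460 and 503 CPM in all lines, and Rdh10, which makes retinaldehyde from retinol, between 6.17 and 12.2 CPM with overlapping lines. The retinaldehyde dehydrogenases, which make retinoic acid itself, were scarce: Aldh1a1, Aldh1a2 and Aldh1a3 stayed at or below 0.591 CPM, and no more than 2 cells of any line had 5 CPM of one (these 3 were named with their values known). Of the 5 tested, Aldh1a2 (unadjusted p = 0.0135, quasi-likelihood adjusted p = 0.192) and Aldh1a3 (0.0733 and 0.367) were above in both FS lines, as 26.8% of all genes tested were, and Rdh11 was below, as 21.5% were. A single cell held 100% (5ar1) and 99.0% (5ar2) of the Aldh1a2 counts, and 89.7% and 78.3% of those of Aldh1a3. Aldh1a2, with 1 count in AFX6 and 0 in AF32, passed the filter through the FS lines alone. The p-values of both genes are thus no support for a difference.

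For retinol transport and storage, 4 of 7 genes were tested, and 3 were higher in both FS lines, where 26.8% of all genes tested were. Fabp5, a fatty acid binding protein known also to carry retinoic acid, had 400 and 403 CPM in the FS lines against 222 and 201 CPM in AFX6 and AF32 (log2 fold change 0.92 ± 0.16, SE; unadjusted p = 0.00404, quasi-likelihood adjusted p = 0.190). Stra6, the retinol importer, had 6.56 and 17.2 CPM against 2.00 and 5.16 CPM. Rbp4, the plasma carrier, overlapped, with 5.30 and 7.91 CPM against 2.59 and 8.83 CPM. Cyp26b1, the other clearance enzyme with a row, had at most 0.0209 CPM.

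The other nuclear receptors overlapped for all 5 tested of 9. Rxrg, the remaining RXR, was lowest in AFX6, at 1.19 CPM against 12.5, 14.0 and 14.3 CPM in 5ar1, 5ar2 and AF32. Nr1h2, a liver X receptor that pairs with RXR, lay between 82.6 and 97.6 CPM, Thra, a thyroid hormone receptor, between 20.0 and 34.8 CPM, and Nr1h3, the other liver X receptor, between 0.0150 and 6.92 CPM. All 12 corepressors and coactivators were tested, of which 3 were above in both FS lines (26.8% of all genes), 2 below (21.5%), and 7 overlapped. Ncor1, a corepressor that RARs hold, had 249 CPM in AF32 against 112, 78.5 and 67.7 CPM in 5ar1, 5ar2 and AFX6. Ncor1 and Thra, both highest in AF32, lie on chromosome 11 like Rara. Hdac3, the deacetylase of the same complex, was higher in both FS lines, at 211 and 175 CPM against 153 and 161 CPM. Tbl1x, another subunit, was lower, at 81.0 and 88.4 CPM against 130 and 152 CPM (unadjusted p = 0.0124, quasi-likelihood adjusted p = 0.190). Sin3a, a scaffold of histone deacetylases, overlapped, with 123 and 94.4 CPM against 78.4 and 107 CPM.

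Most genes known to be induced by retinoic acid were scarce in every line. Of the 17 listed, 15 had a row, and in 10 of the 15 fewer than 10% of cells of every line had 5 CPM. Of the 9 tested, 2 were lower in both FS lines (21.5% of all genes tested were) and 0 higher (26.8%). Tgm2 had 1.81 and 2.00 CPM in 5ar1 and 5ar2, 4.00 CPM in AFX6 and 39.5 CPM in AF32 (unadjusted p = 0.0382, quasi-likelihood adjusted p = 0.275). Its counts rested on few cells, and the highest cell gave 28.8%, 36.4%, 49.2% and 43.7% of them in the same order. Meis2 had 2.69, 0.676, 2.43 and 18.0 CPM, and Zfp703, a zinc finger repressor, 1.52, 0.812, 0.992 and 3.16 CPM in the same order, so that AF32 was the highest line in all 3. The Hox genes Hoxa2, Hoxb1 and Hoxb2, named after their values were seen, had 0 to 0.00230 CPM in the FS lines, and reached 0.596, 1.24 and 0.475 CPM in AF32, where 2 or 3 cells each had 5 CPM, and Hoxa2 1.69 CPM in AFX6. Of the 6 neural factors, the tubulin Tubb3 had 335 and 130 CPM in the FS lines against 12.2 and 68.7 CPM (quasi-likelihood adjusted p = 0.331), and Nes, an intermediate filament of neural progenitors, lay between 97.4 and 123 CPM. Sox1, which specifies neural cells, had 1.14 and 2.7 CPM in the FS lines, 0.259 CPM in AFX6 and 8.36 CPM in AF32. These lists were chosen with results of these data known, and the genes scarce in FS cells pass a filter through the EpiSC lines alone.

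Of the 31 genes with a repeat spaced by 5, 10 had a row, 8 were tested, and 1 was higher (26.8% of all genes) and 1, Rarb, lower (21.5%) in both FS lines. Blvrb and Cyp26a1 were the 2 that passed 5 CPM in any line, and Blvrb, a biliverdin reductase, lay between 61.3 and 130 CPM with overlapping lines.

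Within lines, Rara, Rarg and Rxrb did not run closely with any gene ranked, and no genes were ranked for the other members. For the 3 members with 5 CPM in at least 20% of the cells of every line, the 3 protein-coding genes of at least 10 CPM with the highest mean rank correlation over the cells of the 4 lines, out of 8726, were Dctn1 (0.24), Ctnnb1 (0.23) and Cercam (0.22) for Rara, Dtx1 (0.26), Utf1 (0.23) and Dnmt3b (0.22) for Rarg, and Bicra (0.24), Incenp (0.23) and Esco2 (0.23) for Rxrb. These values are weak, cells of a line share their library preparation and differ in depth, and the highest of many are given as a description. Rara also ran with the number of genes detected in AFX6 (0.35), and between −0.02 and 0.14 in the other lines.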

How the data were processed

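Smart-seq2 libraries of single cells from 4 mouse lines were analysed, 96 cells a line. The authors checked reads with FastQC and MultiQC, aligned them to GRCm38.p6 with STAR 2.7.3a and Ensembl annotation, and counted uniquely mapped reads per gene with featureCounts 2.0.0 from Subread. They deposited raw counts for 31617 genes, and depth-corrected values for 23574 genes from sctransform, whole numbers treated here as a score and used only as an alternative. The labels and methods name no strand setting for these counts.

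Members were matched by Ensembl identifier (9 of 9), and 31565 of all identifiers had a symbol. Members and gene lists were chosen with earlier results of these data known. Of 61 other genes listed, 52 had a row, and the rest are not used here. Counts of cells with at least 3000000 counts were summed per line and tested with edgeR 4.0.16 in R 4.3.3 (TMM, filterByExpr, quasi-likelihood test, called at an adjusted p below 0.05 with a log2 fold change past 1.4 either way). With 2 lines a group, p-values measure the spread between these lines only. The model was run on simulated data with less spread than was fitted here (common dispersion 0.653), which is no support for the results. CPM are counts per 1000000 of a line's sum or a cell's total, and CPM per kb divides by the union of exons in GENCODE M21 (GRCm38), which also gave coordinates. Shares use 5 CPM and exact Clopper-Pearson 95% intervals, which, like the floor of 3 counts, cover counting error only, because several reads can come from 1 molecule. The summed depth per line was 332621205 to 434858507 counts. Ratios of chromosomes used protein-coding genes of at least 20 CPM, members left out, relative to their mean over cells and set to at most 3. Promoters came from RefSeq windows of GRCm38.p6. Correlations are Spearman's, within lines. Named genes were the members, at most the 4 genes of each list with the highest CPM in any line, and the 3 genes most like a member; some listed genes are not reported here. Alternatives were DESeq2 1.42.0, limma 3.58.1 on log2(mean CPM + 0.5), other filters, depths and detection limits, and each line left out. Python 3.11.15, numpy 2.4.6, pandas 2.3.3, scipy 1.17.1 and matplotlib 3.10.9 were used, with the seed 1.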

Additional observations from a re-analysis of the deposited data

How the results depend on the processing

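DESeq2 called 1808 genes and 4 members, limma 1 gene and 0 members, and edgeR 0 genes under each of its settings, including without a threshold on the fold change. DESeq2 called Rara (−1.48), Rarb (−7.95), Crabp2 (2.12) and Dhrs3 (−2.97). Their edgeR values (−1.45, −7.73, 2.14 and −2.96) were also past 1.4, and only the adjusted p differed. The cause was not tested. The log2 fold change of Rxra changed sign with DESeq2 (−0.0134), with DESeq2 size factors in edgeR (−0.0102) and with cells thinned to 1000000 counts (−0.0117), and lay between −0.32 and 0.45 with each line left out. That of Cyp26a1 lay between −11.3 and 3.46 with each line left out. Crabp1 was at −0.0715 with cells of at least 1000000 counts, through 1 AF32 cell. The other 95 alternatives for the fold changes kept their sign and made no call. Their side of a log2 fold of 1.4 could change, as for Rara, which was at −0.82 without AF32. Of 216 alternatives each, 47 levels of a line moved by more than the spread of its state's lines, medians over cells among them, and 2 shares of cells left their interval. With cells of at least 4000000 or 1000000 counts, Rarg separated the groups in level. Rxrb did so with cells of at least 4000000 counts and in medians over cells, and Rxra without the cells of few detected genes. With cells of at least 1000000 counts, Cyp26a1 was lower in both FS lines and Crabp1 overlapped. Medians of Rarb, 0 in every line, overlapped too. No paired analysis was possible because the number in a cell's label only numbers the cells of its line. The setting without the 14 cells of few detected genes was chosen for the tests after seeing the data, as were the alternatives for the differences of line levels, none of which changed sign. Rarb and Cyp26a1 are limited by the few cells that hold their counts, and every test by 2 lines a group.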
